A study of Homo sapiens with 12 samples.

Results

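The nuclear genes for the subunits of the oxidative phosphorylation complexes were examined after loss of factors in an Argonaute phosphorylation cycle. The cells were HCT116, a human line established from a colorectal carcinoma. Members were taken by gene symbol. They are the NDUFA, NDUFB, NDUFC, NDUFS and NDUFV genes of complex I, SDHA to SDHD of complex II, the UQCR genes of complex III, the COX4 to COX8 genes of complex IV and the ATP5 genes of complex V. The NDUFAF assembly factors were left out. This gave 80 of the 12756 genes measured: 37 in complex I, 4 in complex II, 10 in complex III, 12 in complex IV and 17 in complex V. Polyadenylated RNA was sequenced from 12 libraries, 3 labelled replicates for each of 4 genotypes, harvested 48 hours after seeding. AGO2_KO cells carried a knockout of AGO2, which binds microRNAs and is guided by them to target messages. ANKRD52_KO cells carried a knockout of ANKRD52, a regulatory subunit of the PP6 phosphatase. ANKRD52;CSNK1A1_KO cells, the double knockout, carried knockouts of ANKRD52 and of CSNK1A1, the kinase casein kinase 1 alpha, and the parental line carried none of these knockouts. The labels do not say whether a knockout is a single clone or whether replicates were separate cultures. The p-values therefore speak for the spread among these labelled replicates, which could be technical. Each knockout was compared with the same parental libraries, so the 3 comparisons are not independent of each other.

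The complexes sit in the inner mitochondrial membrane. Complexes I and II take electrons from NADH and succinate and pass them to ubiquinone, complex III passes them to cytochrome c, and complex IV passes them to oxygen. Complexes I, III and IV pump protons, and complex V, the ATP synthase, lets the protons back to make ATP. Most subunits are encoded in the nucleus and imported, and a few are encoded in mitochondrial DNA. The mitochondrially encoded subunits are not analysed here. The transcription factors NRF1, GABPA and YY1 are known to bind the promoters of many of the nuclear genes.

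The upstream sequences of 8 members are given because these genes carry the results below. The first 5 are, for each complex, a gene that fell in the double knockout and has a searched motif in these bases. ATP5G1 and UQCRC2 are deep falls with no motif there, and COX6B2 is the member that rose. Promoters were matched for 64 of the 80 members, from RefSeq (GRCh38.p14). Each line holds the 120 bases before the gene's start, 5′ to 3′ on the gene's own strand, and capitals mark matches on either strand to the NRF1 core CGCANGCG or the GABPA core CCGGAAG. NDUFS7 lies at chr19:1383787-1383906 (plus strand), and SDHD at chr11:112086753-112086872 (plus strand). UQCRH lies at chr1:46303578-46303697 (plus strand), and COX8A at chr11:63974500-63974619 (plus strand). ATP5I lies at chr4:674277-674396 (minus strand), and ATP5G1 at chr17:48892667-48892786 (plus strand). UQCRC2 lies at chr16:21953241-21953360 (plus strand), and COX6B2 at chr19:55354720-55354839 (minus strand).
NDUFS7: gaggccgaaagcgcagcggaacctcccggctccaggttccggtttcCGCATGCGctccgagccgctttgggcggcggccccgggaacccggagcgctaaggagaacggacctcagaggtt
SDHD: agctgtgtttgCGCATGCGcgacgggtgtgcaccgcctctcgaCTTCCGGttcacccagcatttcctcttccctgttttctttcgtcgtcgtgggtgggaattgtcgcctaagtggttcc
UQCRH: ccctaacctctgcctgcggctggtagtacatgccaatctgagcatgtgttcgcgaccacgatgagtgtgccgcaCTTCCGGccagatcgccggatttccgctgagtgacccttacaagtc
COX8A: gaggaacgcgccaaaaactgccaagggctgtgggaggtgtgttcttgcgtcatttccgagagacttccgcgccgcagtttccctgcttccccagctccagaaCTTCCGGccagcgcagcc
ATP5I: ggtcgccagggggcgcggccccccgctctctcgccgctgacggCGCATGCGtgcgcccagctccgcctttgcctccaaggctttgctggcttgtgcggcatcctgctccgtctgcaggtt
ATP5G1: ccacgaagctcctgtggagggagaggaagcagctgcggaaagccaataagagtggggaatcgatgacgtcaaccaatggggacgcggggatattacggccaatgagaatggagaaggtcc
UQCRC2: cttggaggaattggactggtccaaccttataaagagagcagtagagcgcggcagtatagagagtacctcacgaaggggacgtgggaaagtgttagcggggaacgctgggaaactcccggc
COX6B2: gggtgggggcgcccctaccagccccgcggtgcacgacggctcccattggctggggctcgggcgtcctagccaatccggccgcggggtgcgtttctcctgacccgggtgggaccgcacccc

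Searched over 300 bases (250 before and 50 after the start, both strands), the NRF1 core was found in 22 of the 64 member promoters (34.4%), against 19.3% of the 10067 measured genes with a promoter and 10.6% of all 27305 promoters. The GABPA core was found in 19 members (29.7%), against 19.4% of measured genes and 10.7% of all promoters. The YY1 sequence AAGATGGCG was found in 8 members (12.5%), against 4.11% of measured genes and 1.85% of all promoters. At least 1 of the 3 was present in 38 members (59.4%), against 36.9% of measured genes. Among the 49 members with a promoter that fell in the double knockout, the NRF1 core was found in 15 (30.6%), against 7 of the other 15 members (46.7%). The GABPA core was found in 15 of these 49 (30.6%), against 4 of the other 15 (26.7%). The YY1 sequence was found in 7 of these 49 (14.3%), against 1 of the other 15 (6.67%). A match is a description of the letters and not evidence of binding. Of the factors' own genes, NRF1 had a log2 fold change of -0.15 and GABPA one of 0.01 in the double knockout in the authors' deposited table, both uncalled. YY1 fell by 0.35 in the ANKRD52 knockout (adjusted p = 0.0143) and by 0.45 in double knockout cells (adjusted p = 0.000185) in the authors' deposited table. GABPB1, the partner subunit of GABPA, rose by 0.28 in the double knockout in the authors' deposited table (adjusted p = 0.0253).

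The values are log2 fold changes (knockout over parental, so that a negative value is lower in the knockout), and a gene was called at an adjusted p under 0.05 from the authors' edgeR likelihood ratio test with Benjamini-Hochberg adjustment over all genes. Values for single libraries were not used, so depth per library and the overlap between groups are unknown. Falls and rises are given as log2 values. The error given is an approximate standard error (SE) rebuilt from the fold change and its likelihood ratio. In the authors' deposited table, the targeted RNAs had log2 fold changes of -1.07 for AGO2 in the AGO2 knockout, 0.03 for ANKRD52 in ANKRD52 knockout cells, and -0.65 for ANKRD52 and -2.42 for CSNK1A1 in the double knockout. ANKRD52 RNA was thus not lower in the cells labelled as its single knockout, and these values do not show whether its coding sequence was changed. It rose by 0.85 in the AGO2 knockout (adjusted p = 8.78e-07) in the authors' deposited table. The fall of AGO2 RNA in the AGO2 knockout was close to the threshold (adjusted p = 0.0477). All 7 epithelial markers were measured, at a mean log2 CPM (read counts scaled to library size) of 5.95 to 11.2. Of 8 markers of blood, endothelial and stromal cells 2 were measured, VWF at 0.11 and COL1A1 at 3.67. The markers moved too. In the authors' deposited table, EPCAM (-0.81), CDH1 (-1.33), CLDN7 (-1.22) and ELF3 (-1.10) fell in the ANKRD52 knockout. KRT8 (1.53), KRT18 (1.55), KRT19 (1.24), CDH1 (1.45) and VWF (2.25) rose in the double knockout in the authors' deposited table, VWF at a mean log2 CPM close to 0. The other epithelial markers were uncalled in the double knockout: EPCAM had 0.13, CLDN7 -0.20 and ELF3 -0.47. No marker was called in the AGO2 knockout in the authors' deposited table. The part of these marker changes in the members' values was not tested. In bulk RNA, fewer cells of a kind and less RNA per cell cannot be told apart.

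Few of these genes changed in the AGO2 knockout. In the authors' deposited table, 3 of the 80 members fell and 0 rose, against 2.72% of all genes that fell and 3.38% that rose. Of the 6578 genes whose mean log2 CPM reached 5, 2.52% fell. The members' median log2 fold change was -0.05 (range -0.51 to 0.35), against 0.00 over all genes, and 53 of 80 members lay below 0. More fell in the ANKRD52 knockout: in the authors' deposited table, 20 of 80 members fell and 0 rose, against 6.04% of all genes that fell and 7.62% that rose. Of the genes whose mean log2 CPM reached 5, 6.38% fell. The members' median there was -0.19 (range -0.81 to 0.33), and 73 of 80 lay below 0. The double knockout had the most: in the authors' deposited table, 60 of 80 members fell (75.0%) and 1 rose, against 20.1% of all genes that fell and 22.9% that rose. Of the genes whose mean log2 CPM reached 5, 24.2% fell. The median of the members in the double knockout was -0.42 (quartiles -0.54 and -0.23), or 0.746 times the parental level, against a median of 0.01 over all genes.

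An F distribution (degrees of freedom 1 and 8) allows for the few replicates. With the deposited likelihood ratio read against it, 0 of 80 members were called in the AGO2 knockout (8 at an unadjusted p under 0.05), 0 in ANKRD52 knockout cells (33 at an unadjusted p under 0.05, smallest adjusted p = 0.0746) and 51 in the double knockout. Of all 12756 genes, the F distribution called 0 in the AGO2 knockout, 3 in ANKRD52 knockout cells and 3784 in the double knockout. Having 0 members called in the first 2 knockouts is therefore no result about the members. At an adjusted p under 0.01, 1 member was called in the AGO2 knockout and 13 were in the ANKRD52 knockout. No share over all genes is given for that threshold.

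**Figure D1:**
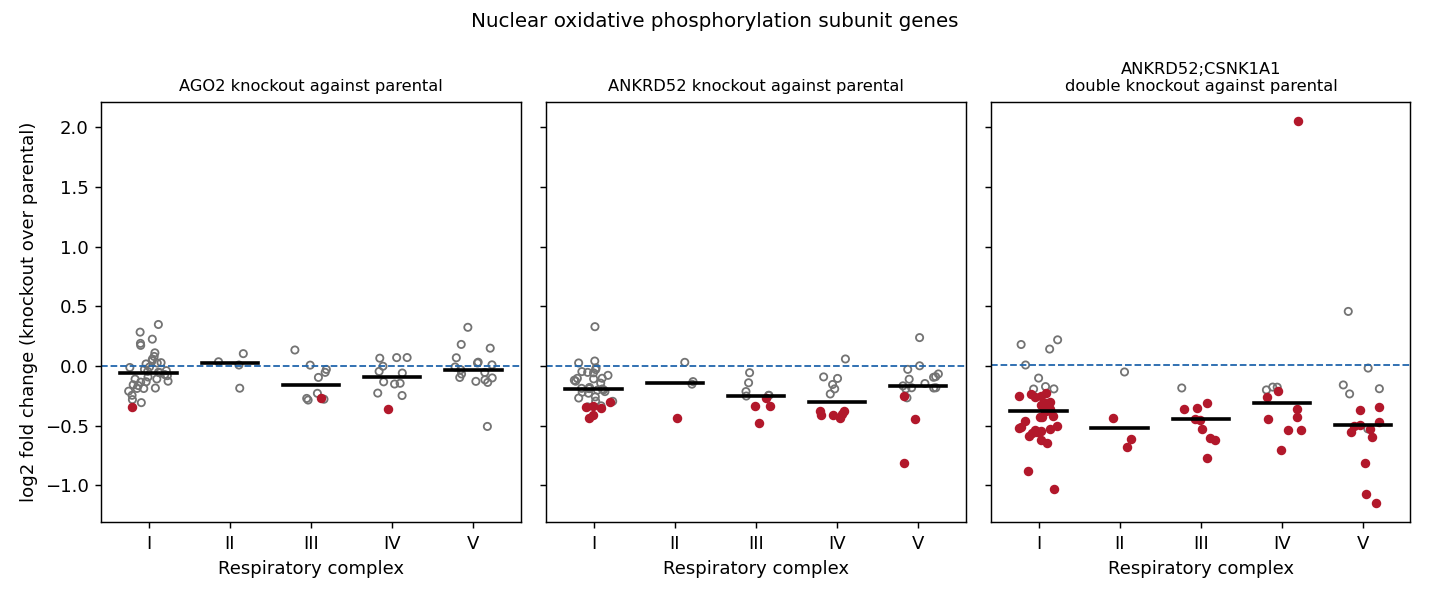
Each point is 1 of the 80 members, by complex (horizontal axis), with its log2 fold change, knockout over parental (vertical axis), in the authors' deposited tables; filled red points have an adjusted p under 0.05, open points do not, black bars are the complex medians and the dashed blue line is the median over all 12756 genes. Filled points number 3 in the AGO2 knockout, 20 in ANKRD52 knockout cells and 61 in the double knockout, where COX6B2 alone rose.

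These genes are short and highly expressed. The median length of their longest annotated transcript was 1266 bases, against 3452 bases over all genes with a length. Of 645 other genes within the members' quartiles of both length and mean expression, 2.95% fell in the AGO2 knockout, 10.2% in ANKRD52 knockout cells and 33.5% in the double knockout in the authors' deposited table. Their median log2 fold changes were 0.00 in the AGO2 knockout, -0.08 in ANKRD52 knockout cells and -0.14 in the double knockout. Their median length was 1766 bases, so these 645 genes were still longer than the members and are only a rough match. The 74 cytosolic ribosomal protein genes, which are also short, were set beside them. In the authors' deposited table, 13 of these 74 fell and 1 rose in the AGO2 knockout, 32 fell in ANKRD52 knockout cells, and 56 fell and 1 rose in the double knockout. Their medians were -0.19 in the AGO2 knockout, -0.29 in ANKRD52 knockout cells and -0.40 in the double knockout. The share of ribosomal genes that fell was 17.6% in the AGO2 knockout, against 3.75% of members. It was 43.2% in ANKRD52 knockout cells, against 25% of members, and 75.7% in the double knockout, against 75.0%. A fall of this extent in the double knockout was thus not particular to the members. The part of transcript length in the members' falls was not tested.

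Complex I, the NADH dehydrogenase, had 1 of its 37 members called in the AGO2 knockout, 6 in ANKRD52 knockout cells and 29 in the double knockout in the authors' deposited table, all of them falls. The median of complex I was -0.06 in the AGO2 knockout, -0.19 in ANKRD52 knockout cells and -0.37 in the double knockout. Its 7 nuclear core subunits, which carry the flavin, the iron-sulfur clusters or the path to ubiquinone, all fell in the double knockout in the authors' deposited table, with a median of -0.52, against 22 of the 30 other members of the complex. The deepest was NDUFS7, the subunit with the last iron-sulfur cluster before ubiquinone, at -1.03 in the authors' deposited table (SE 0.13, adjusted p = 5.28e-13). Its implied level was 30.6 CPM in AGO2 knockout, 27.4 CPM in ANKRD52 knockout, 17.0 CPM in double knockout and 34.7 CPM in parental cells. Implied levels take the mean level as that of 4 equal groups and split it by the 3 fold changes, so they carry no error of their own. NDUFV1, which binds NADH and the flavin, was the core subunit that also fell in the ANKRD52 knockout, by 0.41 in the authors' deposited table (SE 0.13, adjusted p = 0.0223). In the double knockout it fell by 0.62 in the authors' deposited table (SE 0.13, adjusted p = 2.75e-05). NDUFS1, the largest core subunit, fell least of the 7 in the double knockout, by 0.25 in the authors' deposited table (SE 0.09, adjusted p = 0.0123).

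Among the accessory subunits of complex I, which surround the core, NDUFA7 fell by 0.88 in the double knockout in the authors' deposited table (SE 0.13, adjusted p = 9.95e-10). Its implied level was 39.5 CPM in AGO2 knockout, 31.9 CPM in ANKRD52 knockout, 21.9 CPM in double knockout and 40.2 CPM in parental cells. NDUFB10, of the membrane arm, fell by 0.64 (SE 0.12, adjusted p = 6.16e-07) in the double knockout and by 0.36 in the ANKRD52 knockout in the authors' deposited table (SE 0.12, adjusted p = 0.0254). NDUFS6, a zinc-binding accessory subunit, was called in all 3 comparisons. Its log2 fold change in the authors' deposited table was -0.35 in the AGO2 knockout (adjusted p = 0.0131), -0.43 in ANKRD52 knockout cells (adjusted p = 0.000354) and -0.37 in the double knockout (adjusted p = 0.000538). NDUFS7, by contrast, had -0.18 in the AGO2 knockout in the authors' deposited table and was uncalled there. The 8 members of complex I not called in the double knockout ran from -0.19 (NDUFB2 and NDUFB9) to 0.22 (NDUFC2) in the authors' deposited table. NDUFC2, NDUFA4, NDUFA12 and NDUFA11, singled out after their values were seen, lay above 0. NDUFA4, named for complex I but known as a subunit of complex IV, had 0.18 with a wide error in the authors' deposited table (SE 0.24). Reads of NDUFC2 can be shared with an annotated read-through gene.

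Complex II, succinate dehydrogenase, is the enzyme shared with the citrate cycle. SDHB, its iron-sulfur subunit, fell by 0.43 in the ANKRD52 knockout in the authors' deposited table (SE 0.08, adjusted p = 2.43e-06). In the double knockout it fell by 0.68 in the authors' deposited table (SE 0.08, adjusted p = 6.30e-17), and its value in the AGO2 knockout was 0.01. Its implied level was 137 CPM in AGO2 knockout, 101 CPM in ANKRD52 knockout, 85.1 CPM in double knockout and 136 CPM in parental cells. SDHA, the flavoprotein, fell by 0.43 in the double knockout in the authors' deposited table (SE 0.10, adjusted p = 0.000157). SDHD, a membrane anchor, fell by 0.61 there in the authors' deposited table (SE 0.15, adjusted p = 0.000272). SDHC, the other anchor, had -0.05 (SE 0.10, adjusted p = 0.714) in the authors' deposited table. The difference between the anchors was not tested.

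Complex III, the cytochrome c reductase, had 1 of 10 members called in the AGO2 knockout, 4 in ANKRD52 knockout cells and 9 in the double knockout in the authors' deposited table, all falls. The median of complex III was -0.16 in the AGO2 knockout, -0.25 in ANKRD52 knockout cells and -0.45 in the double knockout. UQCRC2, one of the core proteins on the matrix side, fell by 0.77 in the double knockout in the authors' deposited table (SE 0.09, adjusted p = 1.51e-16) and by 0.34 in the ANKRD52 knockout (SE 0.09, adjusted p = 0.00322). Its implied level was 217 CPM in AGO2 knockout, 175 CPM in ANKRD52 knockout, 130 CPM in double knockout and 221 CPM in parental cells. Its partner core protein UQCRC1 was called in the AGO2 knockout, at -0.27 in the authors' deposited table (SE 0.08, adjusted p = 0.0287). It had -0.21 in ANKRD52 knockout cells (adjusted p = 0.0618) and fell by 0.31 in the double knockout (adjusted p = 0.000784) in the authors' deposited table. UQCRFS1, the Rieske iron-sulfur protein that hands electrons on, fell by 0.35 in the double knockout in the authors' deposited table (SE 0.09, adjusted p = 0.000622). Of the hinge protein's rows, UQCRHL fell by 0.60 and UQCRH by 0.44 in the double knockout in the authors' deposited table. They are near-identical copies, so the split of reads between them is uncertain, and UQCRBP1 and ATP5EP2 are annotated as pseudogenes of UQCRB and ATP5E. CYC1, the cytochrome c1 subunit, which the symbol rule does not take, fell by 0.98 in the double knockout and by 0.52 in the ANKRD52 knockout in the authors' deposited table.

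Complex IV, the cytochrome c oxidase, was the complex with a member that rose. In the authors' deposited table, 1 of its 12 members fell in the AGO2 knockout, 6 in ANKRD52 knockout cells and 8 in the double knockout, where 1 rose. Its median was -0.10 in the AGO2 knockout, -0.30 in ANKRD52 knockout cells and -0.31 in the double knockout. COX5A and COX5B, subunits of the matrix side, fell by 0.44 (SE 0.11, adjusted p = 0.0031) and 0.41 (SE 0.11, adjusted p = 0.00352) in the ANKRD52 knockout in the authors' deposited table. In the double knockout COX5A fell by 0.36 and COX5B by 0.54 in the authors' deposited table. COX4I1, the common isoform of a regulatory subunit, fell by 0.40 (SE 0.09, adjusted p = 0.000362) in ANKRD52 knockout cells and by 0.42 in the double knockout in the authors' deposited table. COX6C was called in all 3 comparisons, with a log2 fold change of -0.36 in the AGO2 knockout (adjusted p = 0.00347), -0.37 in ANKRD52 knockout cells (adjusted p = 0.000755) and -0.21 in the double knockout (adjusted p = 0.0419) in the authors' deposited table. COX8A had the deepest fall of the complex in the double knockout, by 0.70 in the authors' deposited table (SE 0.09, adjusted p = 6.11e-13). Its value in the ANKRD52 knockout was -0.23 in the authors' deposited table (adjusted p = 0.0663).

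COX6B2, the isoform of COX6B known from testis, was the member that rose. Its log2 fold change in the double knockout was 2.05 in the authors' deposited table (SE 0.25, adjusted p = 1.37e-14), against -0.15 in the AGO2 knockout and 0.06 in the ANKRD52 knockout, both uncalled. The implied level was 1.57 CPM in AGO2 knockout, 1.81 CPM in ANKRD52 knockout, 7.22 CPM in double knockout and 1.74 CPM in parental cells. The ubiquitous isoform COX6B1 had -0.20 in the double knockout in the authors' deposited table (SE 0.09, adjusted p = 0.058), at an implied 115 CPM in double knockout cells and 132 CPM in parental cells. Of the other isoform genes, COX6A1 fell by 0.26 (adjusted p = 0.0294) in the double knockout in the authors' deposited table, where COX7A2 had -0.18 (adjusted p = 0.24). COX4I2, COX6A2, COX7A1, COX7B2, COX8C and NDUFA4L2 are not analysed here. COX6B2 overlaps another annotated gene on its strand, so its reads may not all be its own. The same limit applies to other members, among them NDUFA7, COX8A, SDHD and ATP5J2.

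**Figure D2:**
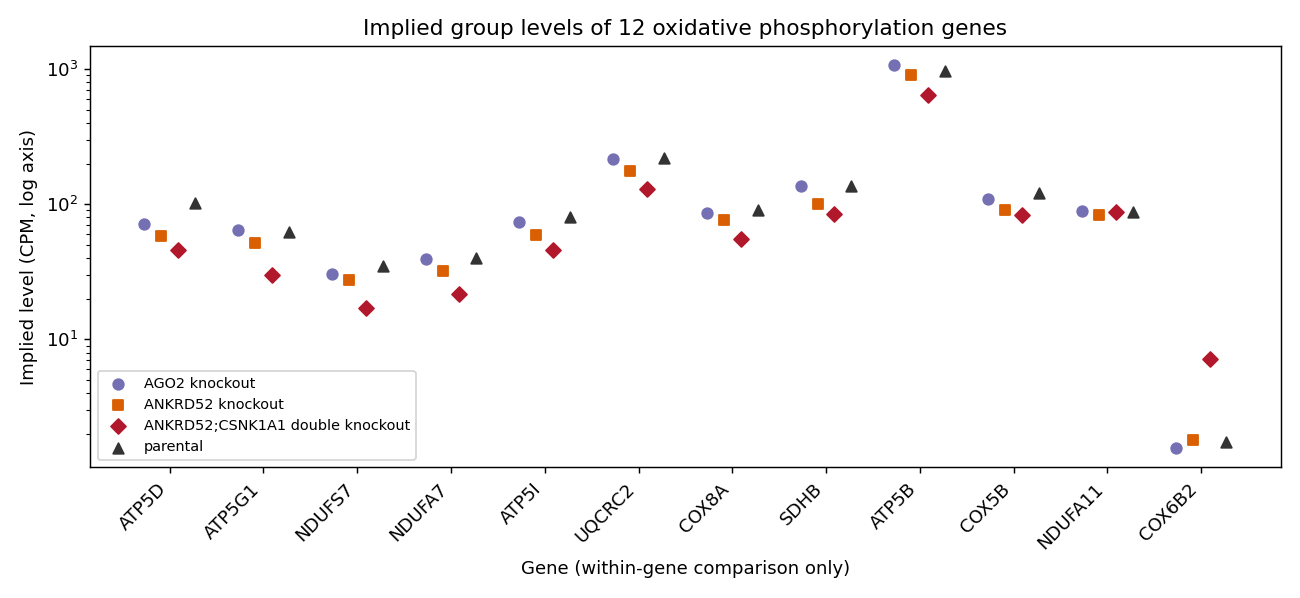
Implied levels (CPM) on a log axis for 12 members (horizontal axis), in AGO2 knockout, ANKRD52 knockout, double knockout and parental cells, without error bars; levels are not corrected for length and compare within a gene only. The double knockout point lies lowest for all genes but 2, stands level with the others for NDUFA11 (87.6 CPM in double knockout and 87.1 CPM in parental cells) and lies highest for COX6B2 (7.22 CPM in double knockout and 1.74 CPM in parental cells).

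Complex V, the ATP synthase, had 0 of 17 members called in the AGO2 knockout, 3 in ANKRD52 knockout cells and 11 in the double knockout in the authors' deposited table, all falls. The median of complex V was -0.03 in the AGO2 knockout, -0.17 in ANKRD52 knockout cells and -0.49 in the double knockout. In the catalytic head, ATP5B, the beta subunit, fell by 0.59 (SE 0.09, adjusted p = 6.45e-10) and ATP5A1, the alpha subunit, by 0.52 (SE 0.08, adjusted p = 2.94e-10) in the double knockout in the authors' deposited table. Neither was called in the AGO2 or the ANKRD52 knockout. The implied level of ATP5B was 1069 CPM in AGO2 knockout, 905 CPM in ANKRD52 knockout, 639 CPM in double knockout and 963 CPM in parental cells. In the central stalk, ATP5D, the delta subunit, had the lowest value of all members in each comparison. It had -0.51 in the AGO2 knockout (SE 0.18, adjusted p = 0.066, uncalled), -0.81 in ANKRD52 knockout cells (SE 0.18, adjusted p = 0.0003) and -1.15 in the double knockout (SE 0.18, adjusted p = 4.34e-09) in the authors' deposited table. Its implied level was 71.5 CPM in AGO2 knockout, 57.7 CPM in ANKRD52 knockout, 45.8 CPM in double knockout and 102 CPM in parental cells. ATP5C1, the gamma subunit of the same stalk, had -0.16 in the double knockout and was uncalled in the authors' deposited table (SE 0.09, adjusted p = 0.145).

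The rotating ring of c subunits is built from 3 genes, ATP5G1, ATP5G2 and ATP5G3, that encode the same mature protein. In the double knockout ATP5G1 fell by 1.07 (SE 0.13, adjusted p = 3.08e-15), ATP5G2 by 0.50 (SE 0.10, adjusted p = 4.03e-06) and ATP5G3 by 0.35 (SE 0.10, adjusted p = 0.00119) in the authors' deposited table. In the ANKRD52 knockout the same genes had -0.27 (ATP5G1), 0.24 (ATP5G2) and -0.18 (ATP5G3) in the authors' deposited table, none of them called. ATP5G1 had an implied 64.0 CPM in AGO2 knockout, 52.1 CPM in ANKRD52 knockout, 29.7 CPM in double knockout and 62.6 CPM in parental cells. ATP5G2 had an implied 71.0 CPM in AGO2 knockout, 82.3 CPM in ANKRD52 knockout, 49.3 CPM in double knockout and 69.7 CPM in parental cells. ATP5I, a membrane subunit of the synthase dimer, fell by 0.44 in ANKRD52 knockout cells (SE 0.11, adjusted p = 0.00111) and by 0.81 in the double knockout (SE 0.11, adjusted p = 2.08e-12) in the authors' deposited table. The uncalled members in the double knockout ran from -0.53 (ATP5J2, adjusted p = 0.0504) to 0.46 (ATP5S, SE 0.27) in the authors' deposited table. ATP5S and ATP5SL carry the ATP5 name without being structural subunits.

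The double knockout was set against the ANKRD52 knockout directly, which asks what differed between cells labelled as knockouts of both genes and of ANKRD52 alone. The difference of the log2 fold changes was tested with its approximate SE and a normal two-sided test, adjusted over the 11877 genes whose mean log2 CPM reached 1. In the double knockout 28 of 80 members were lower and 1 was higher than in the ANKRD52 knockout, against 16.3% of genes that were lower and 18.1% that were higher. The median difference was -0.21 over members and 0.00 over all genes. ATP5G1 had the lowest difference, -0.81 (SE 0.13, adjusted p = 5e-09), followed by ATP5G2 at -0.74 (SE 0.10, adjusted p = 1.84e-12). Next were NDUFS7 at -0.68 (SE 0.13, adjusted p = 2.86e-06), NDUFA7 at -0.55 (SE 0.13, adjusted p = 0.00029) and ATP5B at -0.50 (SE 0.09, adjusted p = 2.46e-07). By complex, lower members numbered 14 of 37 in complex I, 3 of 4 in complex II, 2 of 10 in complex III, 1 of 12 in complex IV and 8 of 17 in complex V. Complex IV had the smallest median difference, -0.07, against -0.33 in complex V. In complex IV, COX8A had a difference of -0.47 (SE 0.09, adjusted p = 3.32e-06), and COX6B2 was higher by 1.99 (SE 0.26, adjusted p = 4.25e-13). No test was made between complexes, so whether complex IV differs from the others in this is not known. Taking the variance as the sum of both squared SEs, the count of members that differed was 13 in place of 29. No share over all genes is given for that variance, so whether the members exceed it there is not known.

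**Figure D3:**
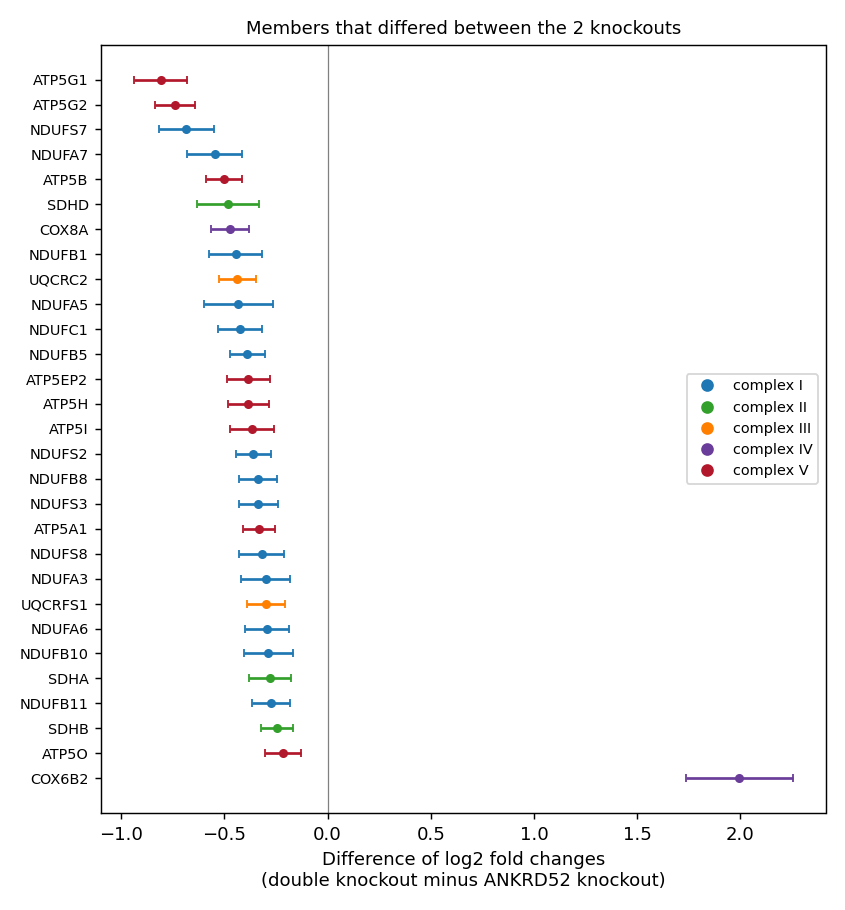
The 29 members that differed between the double knockout and the ANKRD52 knockout at an adjusted p under 0.05, from the deepest difference at the top, with the difference of log2 fold changes, double minus ANKRD52 knockout (horizontal axis); bars are the approximate SE and colours give the complex. All lie left of 0 but COX6B2, at 1.99; complex IV holds 2 of the 29, COX8A and COX6B2.

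In the AGO2 knockout the members were compared with the genes around them, and those on chromosomes 7 and 8 are given one by one. On chromosome 7, in the authors' deposited table, NDUFA5 had 0.35, ATP5J2 0.32 and NDUFB2 0.28, none of them called. The median of the 40 nearest measured genes that are no members was 0.25 around NDUFA5, 0.14 around ATP5J2 and 0.23 around NDUFB2. NDUFA4, also on chromosome 7, had -0.11 in the authors' deposited table beside a local median of -0.30. On chromosome 8, COX6C had -0.36, NDUFB9 -0.31 and UQCRB -0.28 in the authors' deposited table. Local medians were -0.11 around COX6C, -0.32 around NDUFB9 and -0.10 around UQCRB. Over the whole chromosome, the median of the other genes in the AGO2 knockout was 0.04 on chromosome 7 and -0.12 on chromosome 8. It was -0.11 on chromosome 19, which holds 12 members, and those 12 had a median of -0.11. Of the other genes called in the AGO2 knockout, NDUFS6 had -0.35 on chromosome 5 beside a local median of -0.03 in the authors' deposited table. UQCRC1 had -0.27 on chromosome 3 beside a local median of 0.01 in the authors' deposited table. Over all members, the value less its local median had a median of -0.06 in the AGO2 knockout (47 of 80 below 0), -0.19 in ANKRD52 knockout cells (72 of 80) and -0.37 in the double knockout (73 of 80). Copy number was not measured here, so its part in these values was not tested.

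**Figure D4:**
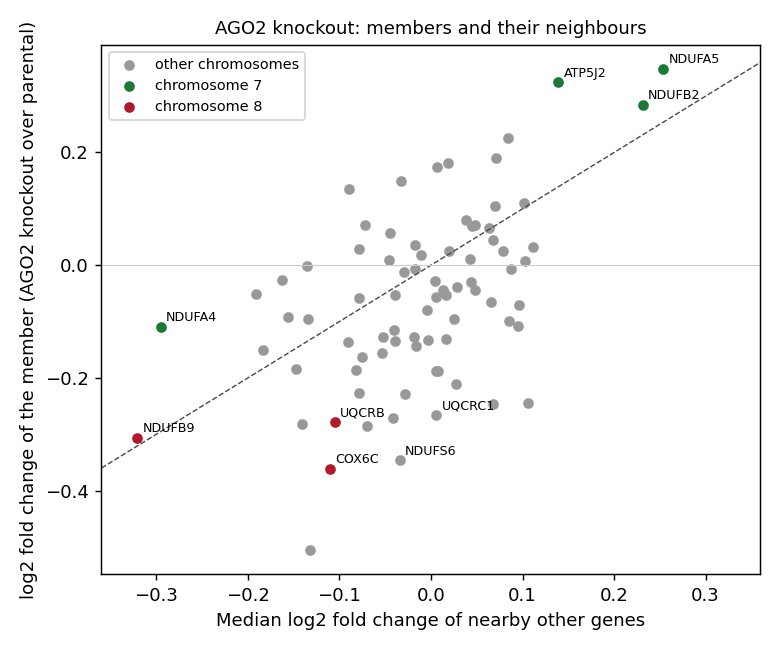
Log2 fold change of each of the 80 members in the AGO2 knockout over parental cells (vertical axis) against the median of up to 40 nearest measured other genes (horizontal axis). The number was 38 for NDUFS6 and lowest, at 21, for SDHA. Colours mark chromosomes 7 and 8 and the dashed line marks equal values. COX6C, at -0.36 beside -0.11, and NDUFS6, at -0.35 beside -0.03, lie below the line, while NDUFB9, at -0.31 beside -0.32, lies on it.

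The genes that build and feed the complexes were described in the same way, and their difference from the subunits was not tested. Of all genes, 2.72% fell in the AGO2 knockout, 6.04% in ANKRD52 knockout cells and 20.1% in the double knockout. Of 645 other genes within the subunits' quartiles of length and expression, 2.95%, 10.2% and 33.5% fell in the same order. They are called genes of the subunits' length and expression below, though their median length was 1766 bases, against 1266 for the subunits. Of 43 measured assembly factors, 0 fell and 1 rose in the AGO2 knockout, 7 fell and 1 rose in ANKRD52 knockout cells, and 17 fell and 2 rose in the double knockout in the authors' deposited table, with medians of 0.03, -0.14 and -0.18 in the same order. Their share in the double knockout, 39.5%, was near that of genes of the subunits' length and expression, whose median there was -0.14. Those genes were matched to the subunits and not to the assembly factors or to the other lists described. The median SE in the double knockout was 0.13 for the assembly factors, against 0.11 for the matched genes, so the shares are not strictly alike. Assembly factors that fell in the double knockout included NDUFAF3, of complex I (-0.76, adjusted p = 4.76e-08), in the authors' deposited table. COX15, which makes the haem of complex IV, also fell there (-0.84, adjusted p = 3e-08). The risers there were TTC19, a complex III factor, at 0.99 (adjusted p = 1.28e-06), and COX20, a complex IV factor, at 0.77 (adjusted p = 3.71e-10) in the authors' deposited table. COX20 also rose by 0.38 in the AGO2 knockout and by 0.43 in the ANKRD52 knockout in the authors' deposited table.

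Of 13 citrate cycle genes, 0 fell in the AGO2 knockout, 3 in ANKRD52 knockout cells and 8 in the double knockout in the authors' deposited table, with a median of -0.34 in the last. The double knockout share was 61.5%, against 20.1% of all genes and 33.5% of genes of the subunits' length and expression. CS, citrate synthase, had -0.01 in the double knockout in the authors' deposited table and was uncalled. Of 10 genes for cytochrome c and the making of ubiquinone, 6 fell in the double knockout, 1 in ANKRD52 knockout cells and 0 in the AGO2 knockout in the authors' deposited table. For these 10 genes the share was 60% in the double knockout. In ANKRD52 knockout cells it was 10%, near the 10.2% of genes of the subunits' length and expression. CYCS, cytochrome c itself, had -0.19 in the double knockout in the authors' deposited table and was uncalled. Of 11 regulators of mitochondrial gene expression, 1 fell in the AGO2 knockout, 3 in ANKRD52 knockout cells and 5 in the double knockout, where 1 rose, in the authors' deposited table. The regulators' share in the double knockout was 45.5%, against 33.5% of genes of the subunits' length and expression. POLRMT, the mitochondrial RNA polymerase, fell by 0.38 in the AGO2 knockout (adjusted p = 0.0435), 0.43 in ANKRD52 knockout cells (adjusted p = 0.00864) and 0.67 in the double knockout (adjusted p = 8.8e-07) in the authors' deposited table. PPARGC1B, a coactivator of respiratory genes, fell by 0.85 in the double knockout in the authors' deposited table (adjusted p = 5.43e-05).

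**Figure D5:**
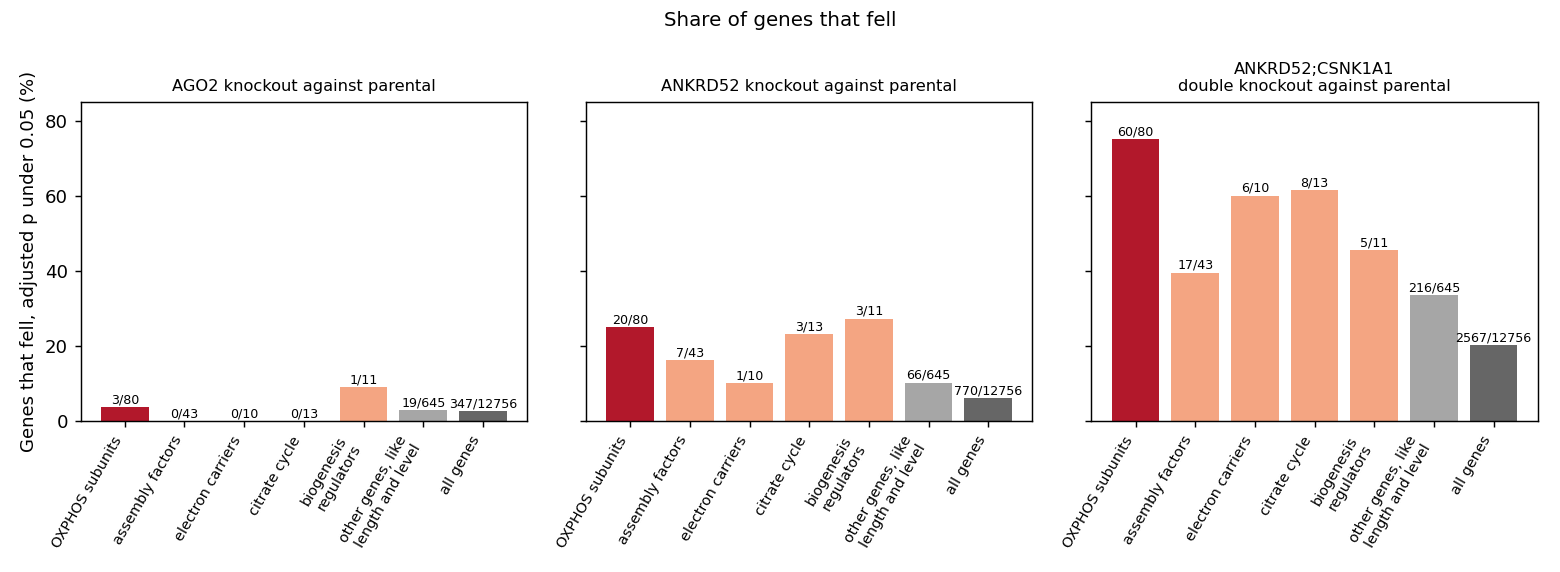
Share of genes that fell at an adjusted p under 0.05 (vertical axis, percent) in each knockout against parental cells in the authors' deposited tables, for the 80 subunit genes, 4 related lists, 645 other genes of like length and expression and all 12756 genes; numbers over the bars are genes that fell of genes measured. In the double knockout 75.0% of subunit genes fell, against 33.5% of genes of like length and expression and 20.1% of all genes. The 74 cytosolic ribosomal protein genes are not drawn, and 75.7% of them fell in the double knockout.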

How the data were processed

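Per the labels' protocols, stranded polyA libraries were sequenced with a kit of 75 cycles. The hg19 build, edgeR 3.8.6, featureCounts 1.4.6 and TopHat2 2.0.12 are named in the submitters' processing notes, without roles. The authors' edgeR results came as 3 tables, for the knockouts against parental. In them the authors give the log2 fold change, the log2 mean CPM and a likelihood ratio, a score for the strength of the change. The deposited p-value stands beside its adjusted value. For all 12756 genes in each table the p-value equalled the chi-square tail (1 degree of freedom) of the likelihood ratio and the adjusted value its Benjamini-Hochberg value. Counts per library were not used here, so count tests gave way to the authors' own, replicates could not be compared, and depth is unknown. No column of other samples was found (0).

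The SE was obtained by dividing the size of the log2 fold change by the root of its likelihood ratio. In the difference between the double and ANKRD52 knockouts the parental level drops out, and its variance is the mean of both squared SEs. That variance assumes equal errors in the groups. The calculation was tested on simulated data, which cannot show whether errors were equal in these libraries. Values per library were not used, so the assumption was not tested. Local medians took the 20 nearest measured non-members on each side, by gene order in RefSeq. Transcript lengths came from GENCODE release 29 (GRCh38). Members matched RefSeq by symbol (62) or synonym (18).

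Members, lists and tests were chosen with earlier results of these data known. Named members were up to 10 called falls and rises per comparison, the smallest p per complex, members called in all comparisons, isoform genes, those on chromosomes 7 and 8, the 5 largest differences each way and highly expressed members. In other lists up to 3 genes per comparison were named by smallest p, and further genes after their values were seen. The ribosomal, translocase, carrier and synthetase lists, the list of subunits with other symbols, local medians and the background of like length were added after seeing the data. Alternatives were other thresholds, filters, centring, an F distribution, means and left-out rows. Figures were drawn with matplotlib 3.10.9, and calculations used pandas 2.3.3, scipy 1.17.1, numpy 2.4.6 and Python 3.11.15.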

Additional observations from a re-analysis of the deposited data

How the results depend on the processing

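No paired analysis was possible because the tables hold no values per library, and leaving out each replicate was not run for the same reason. At an adjusted p under 0.01, 1 member was called in the AGO2 knockout and 13 in the ANKRD52 knockout, with no share over all genes given. With an F distribution, 0 members were called in the AGO2 knockout and 0 in the ANKRD52 knockout. At an unadjusted p under 0.05 it gave 8 members in the AGO2 knockout, against 16 with the deposited p-values. In the ANKRD52 knockout it gave 33, against 38. Over all genes it called 0 in the AGO2 knockout and 3 in the ANKRD52 knockout. Fewer degrees of freedom make the F distribution stricter by construction. With the variance as the sum of both squared SEs, 13 members differed between the double and the ANKRD52 knockout, with no share over all genes given. The complex II value of the AGO2 knockout turned sign when the mean replaced the median (-0.0090, against 0.02 as the median). Both are small beside the SE of its single genes, which had a median of 0.10. The complex IV value of the double knockout was -0.16 as a mean, in which COX6B2 is included. The members' median in the AGO2 knockout was -0.09 when centred on genes whose mean log2 CPM reached 5, against -0.05 as deposited. No error was computed for a median or mean over members. The other counts and medians kept their direction under the thresholds, filters, centrings and left-out rows tried. Counts by complex did not all stay within 1.5 times. At an adjusted p under 0.01, complexes I and III had fewer falls in the ANKRD52 knockout. NDUFB6 (adjusted p = 0.0188) and UQCR11 (adjusted p = 0.0216 in the authors' likelihood ratio test) were among those lost. Per-gene calls are limited by 3 libraries a group and an SE near 0.10 for most members.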

Other observations

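The machinery that makes and imports mitochondrial proteins was described on lists added after seeing the data. Beside the counts, 2.72% of all genes fell in the AGO2 knockout, 6.04% in ANKRD52 knockout cells and 20.1% in the double knockout, and of 645 other genes of the subunits' length and expression 2.95%, 10.2% and 33.5% fell in the same order. Of 74 mitochondrial ribosomal protein genes, 2 fell and 1 rose in the AGO2 knockout, 11 fell and 0 rose in ANKRD52 knockout cells, and 35 fell and 2 rose in the double knockout in the authors' deposited table, with medians of -0.01, -0.13 and -0.27. MRPL24 and MRPL41, both of the large subunit, fell by 0.91 (adjusted p = 1.38e-18) and 0.80 (adjusted p = 2.25e-08) in the double knockout in the authors' deposited table, and MRPL13 and MRPS23 rose by 0.32 and 0.30. Of 22 genes for the translocases of the inner and outer membrane, 0 fell in the AGO2 knockout, 2 in ANKRD52 knockout cells and 9 in the double knockout, where 1 rose, in the authors' deposited table, so that the ANKRD52 knockout share (9.09%) was near that of genes of like length and expression. TOMM6, a small subunit of the outer membrane pore, fell by 0.60 in the double knockout (adjusted p = 1.41e-08), and TIMM10B, a chaperone of the inner membrane path, rose by 0.45 (adjusted p = 0.000115) in the authors' deposited table.

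All 3 genes measured for the carriers that exchange ADP for ATP and bring in phosphate fell in the double knockout in the authors' deposited table: SLC25A3, the phosphate carrier, by 0.40 (adjusted p = 7.46e-05), SLC25A5 by 0.34 (adjusted p = 0.00192) and SLC25A4 by 0.36 (adjusted p = 0.0428). None of them was called in the AGO2 or the ANKRD52 knockout. Of 16 mitochondrial aminoacyl-tRNA synthetase genes, 0 fell in the AGO2 knockout, 1 in ANKRD52 knockout cells (NARS2, -0.40, adjusted p = 0.00885) and 8 in the double knockout, where 1 rose (WARS2, 0.45), in the authors' deposited table. The single synthetase gene in the ANKRD52 knockout is a share of 6.25%, near the share of all genes. Of the subunits that the symbol rule does not take, NDUFAB1, the acyl carrier protein of complex I, fell by 0.38 (adjusted p = 0.000402) and C14orf2, a complex V subunit, by 0.33 (adjusted p = 0.00658) in the double knockout, and USMG5 had -0.09 and was uncalled in the authors' deposited table.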
